A study of Mus musculus with 8 samples.

Results

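The adipocyte genes described here are Adipoq, Lep, Plin1, Plin4, Cidec, Fabp4, Lpl, Pparg, Cfd and Retn, 10 of the 54532 genes in the deposited count table, taken by gene symbol because fat cells are known for their products. Bulk RNA-seq was performed on 8 subcutaneous tumors of 4T1, a mouse triple-negative breast cancer line. The study grew a firefly luciferase line of 4T1 in immunocompetent female BALB/cJ mice injected at 6 weeks of age. Control mice (4 tumors) received saline, which the treatment label calls PBS. Treated mice (4 tumors) received mAb-DXd/IMQ, a humanized CD276 antibody carrying the topoisomerase inhibitor DXd and the Toll-like receptor agonist IMQ, at 16 mg/kg intravenously every 4 days for 5 courses. Tumors were collected at the study endpoint, and the labels give neither the size of the sequenced tumors nor the amount of host tissue taken with them. Both groups carry the same graft in the same host strain, and nothing in the labels separates tumor cells from host cells, so each value is a mixture of both.

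White adipocytes store fatty acids as triglyceride in a single large lipid droplet, release them on demand, and secrete hormones that act on appetite, insulin response, and the vasculature. PPARγ, encoded by Pparg, drives the differentiation of these cells and the expression of many of their genes. Fat lies directly under mouse skin and around the mammary gland, where a subcutaneous graft grows. Adipoq, Plin1 and Cidec are largely restricted to fat cells, whereas Fabp4 and Lpl are also made by endothelial cells, macrophages, and muscle, and Pparg by macrophages and epithelia.

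Saline tumors 1 to 4 had 49398150, 45019927, 56388627 and 69582375 total counts, and mAb-DXd/IMQ tumors 1 to 4 had 51625237, 46196237, 42965317 and 34591912. The difference between means was -11252594 counts and the groups overlapped (exact permutation test over the tumors, two-sided, p = 0.171; the smallest p that 4 against 4 tumors allow is 0.0286). Without saline tumor 4 the difference was -6424226 counts. A gene with 3 counts, used below as the floor of detection, stood at 0.0439 to 0.0843 CPM (counts scaled to library size, with TMM normalization) depending on the tumor. Floors and counting intervals cover counting error only.

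Of the 10 adipocyte genes, 8 were well below the typical tested gene and 2 were near it. On the length-scaled TPM scale, the mean over the 8 tumors was 13.5 ± 3.26 for Fabp4 (SD, n = 8) and 11.2 ± 8.08 for Cfd, close to the median of 11.1 over all 18511 genes tested. Lpl followed at 1.88 ± 0.572 TPM, Adipoq at 1.23 ± 0.997 TPM and Plin4 at 1.10 ± 0.903 TPM. The lowest levels were those of Pparg (0.958 ± 0.426 TPM), Cidec (0.815 ± 0.530 TPM), Retn (0.429 ± 0.329 TPM), Plin1 (0.131 ± 0.112 TPM) and Lep (0.0369 ± 0.0472 TPM). Going down this order, each gene exceeded the next in 5, 6, 7, 4, 4, 5, 7, 7 and 6 of 8 tumors. By mean TPM, Fabp4 ranked 8526 and Adipoq 15215 among the 18511 genes. The deposited lengths take in all annotated exons (4489 bases for Fabp4 and 10478 for Lpl, against 896 and 851 bases for their shortest annotated transcripts), so TPM understates a gene read mainly from a short transcript.

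Secreted products were examined first. Adipoq encodes adiponectin, a hormone made almost only by fat cells, and lies at chr16:23146536-23158028 on the plus strand (ENSMUSG00000022878, GRCm38 coordinates). It reached 1.44, 0, 0.752 and 0.775 CPM in saline tumors 1 to 4 and 0.248, 0.728, 0.0874 and 0.759 CPM in mAb-DXd/IMQ tumors 1 to 4. These levels came from 71, 0, 42 and 53 counts in saline tumors and 12, 34, 4 and 27 counts in mAb-DXd/IMQ tumors. Saline tumor 1 was highest and saline tumor 2 had no count, so the saline group held both extremes and enclosed the entire treated group. The group means were 0.742 ± 0.588 CPM (SD, n = 4) with saline and 0.455 ± 0.339 CPM (SD, n = 4) with mAb-DXd/IMQ, a log2 fold change of -0.72 (95% CI -2.75 to 1.32). The adjusted p from edgeR's quasi-likelihood test with Benjamini-Hochberg adjustment over all 18511 genes was 0.724.

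Cfd encodes complement factor D, or adipsin, a serine protease of the alternative complement pathway, on chromosome 10. It was measured at 7.01, 0.293, 3.15 and 7.04 CPM in saline tumors 1 to 4 and 3.40, 4.67, 0.328 and 3.37 CPM in mAb-DXd/IMQ tumors 1 to 4. A low tumor was present in each group, saline tumor 2 with 13 counts and mAb-DXd/IMQ tumor 3 with 15 counts, and the other 6 tumors lay above 3 CPM. Retn encodes resistin, a small hormone of mouse fat, and was at 0.284, 0.0677, 0.305 and 0.614 CPM in saline tumors 1 to 4 and 0.124, 0.0428, 0.262 and 0.197 CPM in mAb-DXd/IMQ tumors 1 to 4. Saline tumor 4 was highest, and the lowest value was that of mAb-DXd/IMQ tumor 2, with 2 counts. Lep encodes leptin, the satiety hormone, and had 1, 0, 5 and 0 counts in saline tumors and 0, 6, 0 and 4 counts in mAb-DXd/IMQ tumors. Its 16 counts over all tumors did not pass the filter on low counts, so Lep was the 1 adipocyte gene without a test, and no tumor stood clear of the floor by more than 3 counts.

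Lipid droplet proteins were examined next. Plin4, a perilipin that coats lipid droplets, stood at 6.18, 0.135, 2.28 and 2.08 CPM in saline tumors 1 to 4 and 2.15, 1.39, 1.20 and 2.50 CPM in mAb-DXd/IMQ tumors 1 to 4. Saline tumor 1 was again highest and saline tumor 2 lowest, and all 4 treated tumors fell between them. Plin1 encodes perilipin 1, which guards the adipocyte droplet from lipases, and had 25, 0, 13 and 20 counts in saline tumors and 2, 18, 8 and 2 counts in mAb-DXd/IMQ tumors. On the CPM scale this was at most 0.507, in saline tumor 1. Cidec, whose product fuses small droplets into a large one, was at 0.892, 0, 0.645 and 1.02 CPM in saline tumors 1 to 4 and 0.248, 0.578, 0.524 and 0.309 CPM in mAb-DXd/IMQ tumors 1 to 4. The 3 higher saline tumors were all above the treated tumors for Cidec, while saline tumor 2 was below all of them.

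Fatty acid uptake genes had higher counts and a narrower range. Fabp4, the fatty acid carrier of the adipocyte cytoplasm, was at 15.8, 23.3, 17.7 and 31.9 CPM in saline tumors 1 to 4 and 27.7, 20.3, 14.5 and 21.4 CPM in mAb-DXd/IMQ tumors 1 to 4. Saline tumor 2, which had no count on Adipoq, Plin1 and Cidec, was exceeded for Fabp4 only by saline tumor 4 and mAb-DXd/IMQ tumor 1, and saline tumor 1 was above mAb-DXd/IMQ tumor 3 alone. Lpl encodes lipoprotein lipase, which frees fatty acids from circulating lipoproteins, and was at 10.3, 3.59, 7.33 and 7.89 CPM in saline tumors 1 to 4 and 5.98, 7.64, 6.66 and 5.93 CPM in mAb-DXd/IMQ tumors 1 to 4. Lpl shared its highest and lowest tumors with Plin4, although over a smaller range. Pparg, the adipogenic transcription factor, was at 1.38, 1.35, 0.591 and 1.68 CPM in saline tumors 1 to 4 and 0.454, 0.835, 0.874 and 0.759 CPM in mAb-DXd/IMQ tumors 1 to 4. For Pparg, 3 saline tumors lay above every treated tumor and saline tumor 3 lay within the treated range.

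**Figure D1:**
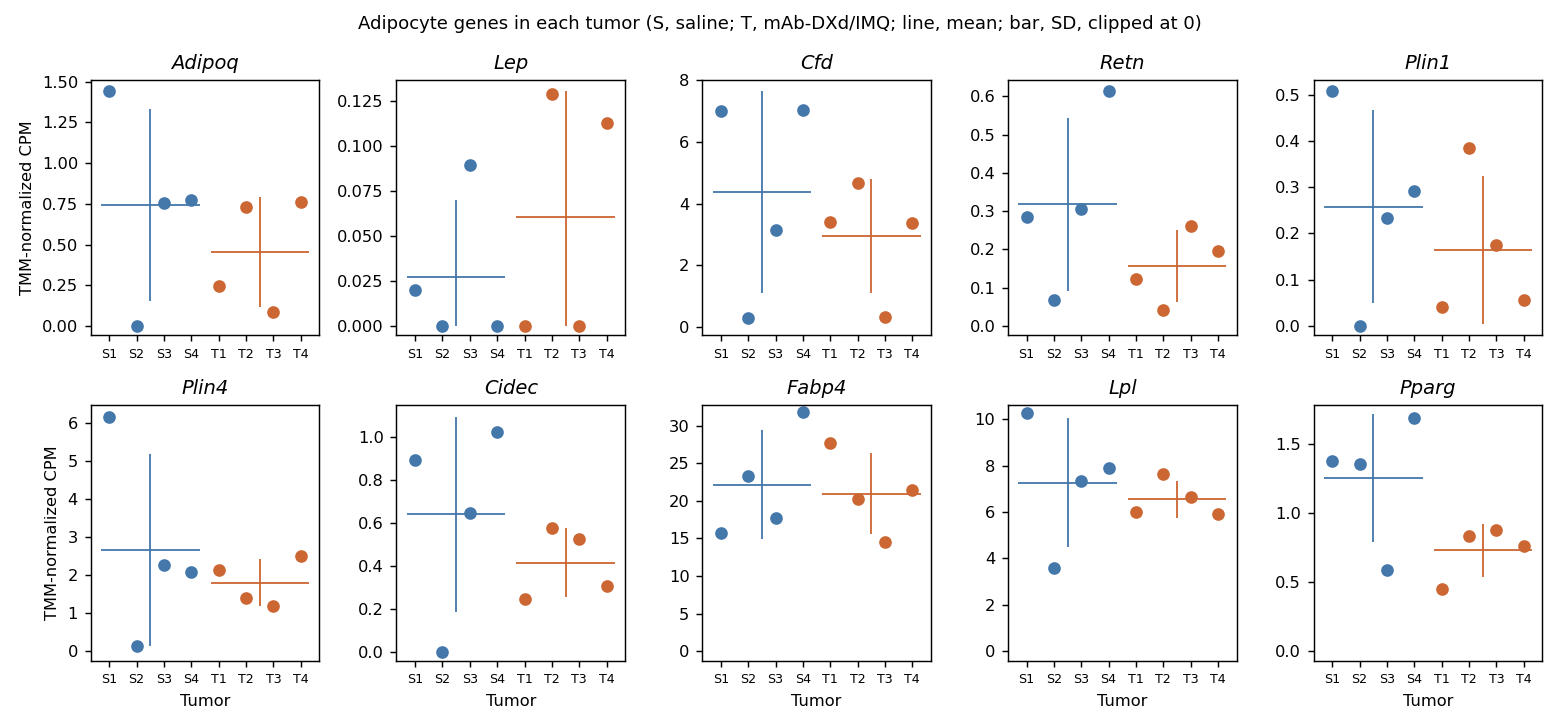
TMM-normalized CPM (linear axis) of the 10 adipocyte genes in saline tumors S1 to S4 (blue) and mAb-DXd/IMQ tumors T1 to T4 (orange), with the group mean as a line and the SD (n = 4) as a bar clipped at 0. Tumor S2 is at 0 for Adipoq, Plin1 and Cidec but at 23.3 CPM for Fabp4, and the groups overlap in every panel.

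Between groups, 0 of the 9 adipocyte genes tested passed an FDR under 0.05 with an absolute log2 fold change above 0.58, beside 1.06% of all 18511 genes (197 genes, 101 higher and 96 lower with mAb-DXd/IMQ). The edgeR quasi-likelihood test also gave 0 adipocyte genes at an unadjusted p under 0.05, beside 3503 of all 18511 genes. DESeq2 and limma-voom likewise gave 0 adipocyte genes at that limit. Limma-voom called 0 of the 9, beside 174 among all genes. DESeq2 called 0 of 7, beside 787 among all genes, since it gave Plin1 and Retn no adjusted p. The groups overlapped for all 10 genes, a count without a background, since the share of all genes that overlap is not given here. The 9 fitted log2 fold changes were all negative, from -1.04 for Retn to -0.08 for Fabp4, with a median of -0.63 beside 0.02 over all genes tested, of which 8768 were negative. Lep, untested, had a higher treated mean (0.0602 against 0.0275 CPM), and without the filter its log2 fold change was 1.03 (adjusted p = 0.796 by edgeR). All 9 stayed negative with RLE factors, upper quartile factors and library size alone, whose medians over the 9 were -0.63, -0.58 and -0.59, but with limma-voom Plin4 was at 0.16, Cidec at 0.31 and Adipoq at -0.0599. The smallest adjusted p from edgeR was 0.316 for Pparg (log2 fold change -0.78, 95% CI -1.64 to 0.09), and the largest was 0.895 for Fabp4 (-0.08, 95% CI -0.61 to 0.45). Medians of some lists of other cells lay as far from 0 or farther. The median log2 fold change was 1.04 for 7 tested epidermis genes (7 positive, 0 called) and 0.74 for 10 smooth muscle and pericyte genes (10 positive, 0 called). It was -0.78 for 8 tested neutrophil genes (6 negative), of which Csf3r was called lower (log2 fold change -0.80, adjusted p = 0.0402 by edgeR, up to 0.134 over the alternatives). The Csf3r call was lost with the replicate block (adjusted p = 0.117 by edgeR), with upper quartile factors and with library size alone. It was kept in 1 of the 8 fits that left out 1 tumor. The part of these cells in the adipocyte gene values was not tested.

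Several intervals were wide. Beside Adipoq, they ran from -2.66 to 1.39 for Plin1, from -2.14 to 1.02 for Plin4, from -2.41 to 1.15 for Cidec and from -2.35 to 1.20 for Cfd on the log2 scale, so that neither a several-fold decrease nor a clear increase was outside them. For Lpl the interval was -0.76 to 0.46. In bulk tumors, fewer adipocytes and less RNA per adipocyte cannot be told apart. The sign or size of some values rested on single tumors. Without saline tumor 1, Plin4 was at 0.26 and Lpl at 0.06. On leaving out 1 tumor, Adipoq ranged from -1.13 (without saline tumor 2) to -0.19 (without saline tumor 1), Plin1 from -1.48 (without mAb-DXd/IMQ tumor 2) to -0.12 (without saline tumor 1), and Retn from -1.43 (without mAb-DXd/IMQ tumor 3) to -0.49 (without saline tumor 4). Cfd ranged from -0.96 (without saline tumor 2) to -0.20 (without mAb-DXd/IMQ tumor 3) and Cidec from -1.04 (without saline tumor 2) to -0.30 (without saline tumor 4). Fabp4 turned to 0.15 without saline tumor 4 and to 0.06 without mAb-DXd/IMQ tumor 3. Without saline tumor 2, Plin4 (unadjusted p = 0.0492, adjusted p = 0.322 by edgeR) and Cidec (unadjusted p = 0.0472, adjusted p = 0.319 by edgeR) came under 0.05 before adjustment. The background count moved as well: 111 genes were called without saline tumor 2, 10 without saline tumor 3, 11 without saline tumor 4, and 76, 88 and 12 without mAb-DXd/IMQ tumors 2, 3 and 4.

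**Figure D2:**
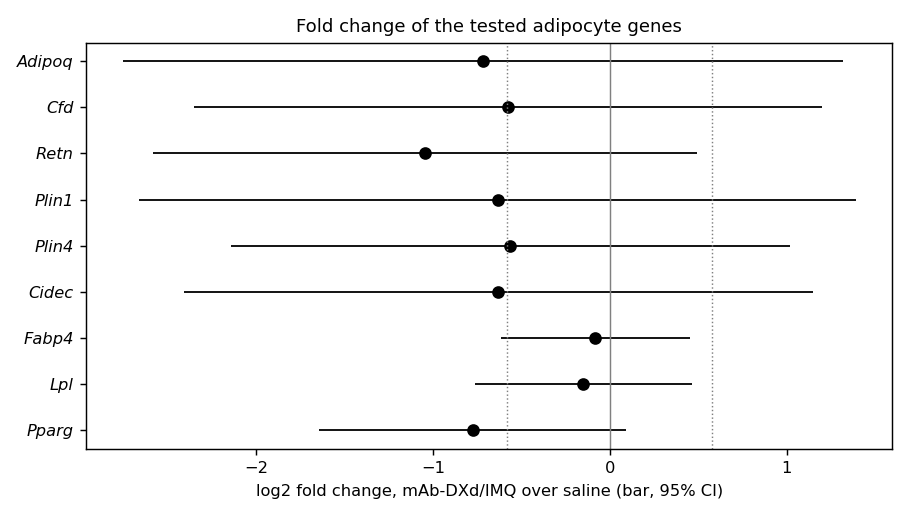
Log2 fold change of mAb-DXd/IMQ over saline for the 9 tested adipocyte genes, with 95% confidence intervals (bars); dotted lines mark 0.58 in either direction. All points lie below 0 and all bars cross it.

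Saline tumors also differed among themselves. Saline tumor 2 was the lowest of all 8 tumors for 6 of the 9 tested adipocyte genes, beside 14.4% of all genes tested (2668 genes). Saline tumor 1 was highest for 4 of the 9 and saline tumor 4 for the other 5, beside 14.2% and 8.02% of all genes tested. These tumors were singled out after the values were seen. Compared on normalized counts, the ratio of saline tumor 1 to the floor of 3 counts in saline tumor 2 was 21.3 for Adipoq, 13.2 for Cidec and 7.49 for Plin1. These 3 ratios leave out the counting error of saline tumor 1. The ratio of saline tumor 1 to saline tumor 2 was 45.7 for Plin4 (95% counting interval 20.7 to 125.4) and 23.9 for Cfd (13.8 to 45.4). It was 2.87 for Lpl (2.39 to 3.44) and 4.19 for Retn (1.17 to 22.8), which had only 3 counts in saline tumor 2. For Pparg the ratio was 1.02 (0.709 to 1.47), not detectably different from 1 at this depth, and for Fabp4 it was 0.678 (0.617 to 0.744), in the other direction. The adipocyte genes therefore did not move as a block across these tumors.

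The SD of log2 CPM among saline tumors was 2.34 for Adipoq, 2.23 for Cidec, 2.19 for Plin4 and 2.08 for Cfd, beside a median of 0.225 over all genes tested. Of the tested genes, 0.124% had a larger SD than Adipoq and 0.259% a larger SD than Cfd, with low counts adding to the spread of such genes. For Adipoq and Cidec, the log2 value of saline tumor 2 was set by the prior count of 2, so the size and rank of their saline SD depend on it. Fabp4 had an SD of 0.452, exceeded by 26.8% of genes. Among mAb-DXd/IMQ tumors, the SD was 1.70 for Cfd and 1.27 for Adipoq, but 0.490 for Plin4 and 0.533 for Cidec, beside a median of 0.301. The difference in spread between groups was not tested, and for Cidec the saline spread came from the 1 tumor without a count.

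Across the 8 tumors, log2 CPM of Adipoq was compared with that of the 8 other tested members, a family of 8 relations. In saline tumor 2, the log2 value of Adipoq was set by the prior count of 2, so each Pearson's r over the 8 tumors depends on it. Cidec and Plin1, also without a count there, had the same value. Pearson's r was 0.925 with Cfd (exact permutation p = 0.00228, adjusted 0.00913), with a Spearman's rho of 0.786 (exact permutation p = 0.0279, adjusted 0.0745). With Plin4, r was 0.891 (exact permutation p = 0.00191, adjusted 0.00913) and rho 0.810 (exact permutation p = 0.0218, adjusted 0.0745). Both relations weakened when saline tumor 2 and mAb-DXd/IMQ tumor 3, the 2 tumors farthest from the median of Adipoq, were left out, to r = 0.583 for Cfd and 0.557 for Plin4, and rested in part on them. The r was higher without them for Lpl (0.857 with all tumors, exact permutation p = 0.00680, adjusted 0.0181; 0.778 without the 2), Cidec (0.827, exact permutation p = 0.0178, adjusted 0.0356; 0.741) and Plin1 (0.750, exact permutation p = 0.0265, adjusted 0.0423; 0.759) than for Cfd and Plin4. Their rho was 0.714 for Lpl, 0.786 for Cidec and 0.714 for Plin1, with exact permutation p of 0.0576, 0.0279 and 0.0576 and adjusted values of 0.0921, 0.0745 and 0.0921. No rho passed 0.05 after adjustment. No correlation of Adipoq was detected over the 8 tumors with Fabp4 (r = -0.0461, exact permutation p = 0.916, adjusted 0.937; rho = 0, exact permutation p = 1, adjusted 1; r = -0.611 without the 2) or Pparg (r = -0.0340, exact permutation p = 0.937, adjusted 0.937; rho = 0.310, exact permutation p = 0.462, adjusted 0.528; r = 0.726 without the 2). The r of both genes thus depended on the 2 tumors. For Retn, r was 0.414 (exact permutation p = 0.305, adjusted 0.407), rho 0.619 (exact permutation p = 0.115, adjusted 0.153) and r without the 2 tumors 0.348. These values pool both groups. On values centered by group, with exact permutation within groups (added after the data were seen), r was 0.925 for Cfd (p = 0.0156, adjusted 0.0694), 0.900 for Plin4 (p = 0.0174, adjusted 0.0694), 0.856 for Lpl (p = 0.0642, adjusted 0.171), 0.831 for Cidec (p = 0.127, adjusted 0.203) and 0.751 for Plin1 (p = 0.102, adjusted 0.203). None of the 8 relations passed 0.05 after adjustment in this form. The labels name no batch, and 4 tumors are too few for a correlation in either group alone.

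**Figure D3:**
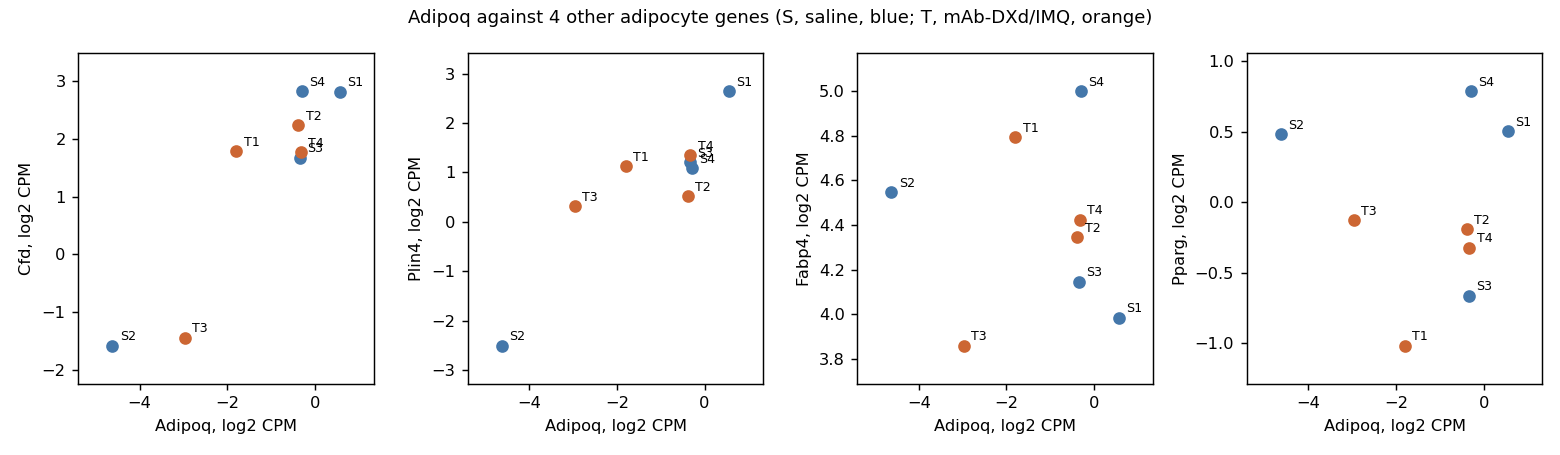
Log2 CPM of Cfd, Plin4, Fabp4 and Pparg (y axes) against log2 CPM of Adipoq (x axis) in saline tumors S1 to S4 (blue) and mAb-DXd/IMQ tumors T1 to T4 (orange). Tumors S2 and T3 are lowest for Adipoq and for Cfd (r = 0.925 over the 8 tumors), whereas Fabp4 shows no such order (r = -0.0461).

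For Adipoq and the 2 genes with the highest r to it over the 8 tumors, Cfd and Plin4, the bases before the start sites are shown, from RefSeq promoter sequences on GRCm38.p6, each running 5′ to 3′ on the gene's strand up to the base before the gene in the count table. Entries were found for 8 of the 10 adipocyte genes, and there was none for Fabp4 and Lpl. The windows are chr16:23146286-23146535 (plus strand, 250 bases) for Adipoq, chr10:79890603-79890852 (plus strand, 250 bases) for Cfd and chr17:56109804-56110032 (minus strand, 229 bases) for Plin4. Capitals mark matches on either strand to 1 of 5 motifs chosen after the values were seen: the CCAAT box, the TATA box written as TATAA, the half-site AGGTCA of nuclear receptors such as PPARγ, its direct repeat AGGTCANAGGTCA, which contains the half-site, and a relaxed form of the C/EBP palindrome, TTGCNNAA.
Adipoq: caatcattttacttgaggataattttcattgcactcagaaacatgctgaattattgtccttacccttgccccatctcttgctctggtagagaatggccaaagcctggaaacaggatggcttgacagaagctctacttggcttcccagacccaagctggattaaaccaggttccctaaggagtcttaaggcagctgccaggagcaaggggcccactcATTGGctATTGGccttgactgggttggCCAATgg
Cfd: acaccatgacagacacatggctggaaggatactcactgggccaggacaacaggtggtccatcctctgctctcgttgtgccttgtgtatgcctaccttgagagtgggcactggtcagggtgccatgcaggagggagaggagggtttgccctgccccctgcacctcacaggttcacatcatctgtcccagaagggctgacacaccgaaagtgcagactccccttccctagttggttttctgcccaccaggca
Plin4: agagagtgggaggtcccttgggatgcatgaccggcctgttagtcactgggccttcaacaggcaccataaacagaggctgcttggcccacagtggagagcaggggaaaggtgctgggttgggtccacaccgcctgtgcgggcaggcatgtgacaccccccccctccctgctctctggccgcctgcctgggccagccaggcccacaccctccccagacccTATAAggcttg
Adipoq had 3 CCAAT matches, on the opposite strand from 34 to 30 and from 27 to 23 bases before the gene and on the gene's strand from 7 to 3 bases before it, and CCAAT occurs in 33.9% of the 32851 RefSeq windows of 250 bases. Plin4 had 1 TATAA match, from 11 to 7 bases before the gene, and TATAA occurs in 22.8% of windows. Cfd held none of the 5 motifs. The half-site, its direct repeat and the relaxed palindrome were in none of the 3 windows and occur in 4607, 11 and 3142 of all windows. GC content was 48.8% for Adipoq, 57.6% for Cfd and 64.6% for Plin4, beside a median of 52.4% over all windows, so no motif searched was shared by the 3 genes.

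Outside the members, the 8 tested genes whose centered log2 CPM over the 8 tumors differed least from that of Adipoq (root-mean-square difference) were Il17rb (0.661), Aldh1a1 (0.689), Gm10517 (0.714), Gm15868 (0.723), Prlr (0.725), Extl1 (0.735), Nppb (0.751) and Trpv3 (0.772). Among all 18510 other tested genes, Cfd was the nearest (0.638) and Plin4 ranked 8 (0.744), while Cidec ranked 29, Plin1 113, Lpl 462, Retn 1982, Fabp4 11294 and Pparg 13915. The median difference was 1.66. This order rested on saline tumor 2, where the log2 value of Adipoq was set by the prior count of 2. In a comparison over the other 7 tumors, added after the data were seen, only Il17rb of these 8 remained among the 8 nearest (0.386), and Cfd ranked 123 and Plin4 455. Il17rb, which encodes a receptor subunit for interleukin 25, was at 1.93, 0.226, 1.31 and 1.73 CPM in saline tumors 1 to 4 and 0.825, 1.48, 0.328 and 1.43 CPM in mAb-DXd/IMQ tumors 1 to 4.

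Summed over the 10 members, CPM was 43.8, 28.8, 33.0 and 53.3 in saline tumors 1 to 4 and 40.3, 36.7, 24.6 and 35.4 in mAb-DXd/IMQ tumors 1 to 4, with means of 39.7 ± 11.0 (SD, n = 4) and 34.3 ± 6.77 (SD, n = 4). Fabp4 and Lpl held 59.5% of this sum in saline tumor 1 and 93.6% in saline tumor 2. The sum of the other 8 members, added after the data were seen, was 17.7, 1.85, 8.04 and 13.5 CPM in saline tumors 1 to 4 and 6.66, 8.76, 3.45 and 8.07 CPM in mAb-DXd/IMQ tumors 1 to 4. The treated sums of the 8 fell between the saline extremes, while over the 10 members mAb-DXd/IMQ tumor 3 lay below every saline tumor. The difference between group means was smaller than the SD of the saline tumors on either sum.

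Other genes of fat cells were examined as lists. Of 15 other adipocyte-enriched genes, 10 were tested, 1 was called higher and 0 lower, with a median log2 fold change of 0.25 beside 0.02 over all genes. The called gene was Npr3, the clearance receptor for natriuretic peptides, at 0.892, 1.31, 1.13 and 0.863 CPM in saline tumors 1 to 4 and 3.47, 2.38, 2.82 and 2.08 CPM in mAb-DXd/IMQ tumors 1 to 4. The groups did not overlap for Npr3 (log2 fold change 1.36, 95% CI 0.74 to 1.98, adjusted p = 0.0458 by edgeR), higher in 4 of 4 treated tumors, but the call was lost on leaving out any 1 of the 8 tumors, without the filter and with the length offset (adjusted p up to 0.155 over all alternatives to this edgeR fit) and with the replicate block (0.126). Npr3 was not low in saline tumor 2, but 4 of the 10 tested genes of this list, Car3, Rbp4, Trarg1 and Slc2a4, were lowest there, as Adipoq was. Pde3b, a phosphodiesterase that restrains lipolysis (log2 fold change -0.33), and Retsat, a retinol saturase (0.28), the 2 genes of this list with the highest CPM, were not called (adjusted p = 0.440 and 0.316 by edgeR). The 5 genes that failed the filter were Adrb3, Acvr1c, Adig, Mrap and Thrsp.

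Of 23 genes of triglyceride storage and lipolysis, 19 were tested and 0 were called, 13 with a negative value and a median log2 fold change of -0.17. Plin2, the perilipin of droplets in most cell types, was at 106 ± 19.9 CPM in saline and 154 ± 27.2 CPM in mAb-DXd/IMQ tumors (SD, n = 4), in the other direction from Plin1 and Plin4, without passing the thresholds (log2 fold change 0.55, 95% CI 0.19 to 0.90, adjusted p = 0.106 by edgeR). Slc27a1, a fatty acid transporter with the highest CPM of the list, was at 235 ± 81.6 and 178 ± 55.7 CPM (SD, n = 4; log2 fold change -0.40, adjusted p = 0.436 by edgeR). Of 12 adipogenic transcription factors, 11 were tested and 0 called (median -0.08). Cebpb, an early factor upstream of Pparg, was at 165 ± 8.69 CPM with saline and 110 ± 26.9 CPM with mAb-DXd/IMQ (SD, n = 4; log2 fold change -0.59, 95% CI -0.96 to -0.21, adjusted p = 0.102 by edgeR), and Srebf1, a lipid synthesis factor, differed by -0.04 on the log2 scale. The groups did not overlap for Cebpb, nor for Rxra and Zfp423 of the same list, of which Zfp423 was higher with mAb-DXd/IMQ. Nor did they overlap for the tested genes Pnpla2, Lpin1 and Acsl1 of the storage list, or for Adipor2 and Insr of the receptor genes, all lower with mAb-DXd/IMQ. All 5 adipokine and insulin receptor genes had negative values (median -0.16) and 0 were called, with Adipor1 at 218 ± 7.94 and 199 ± 26.0 CPM and Insr at 136 ± 5.61 and 106 ± 16.2 CPM (SD, n = 4).

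Of 9 genes of brown and beige fat, 4 were tested and 0 called (median -0.21), and Ucp1, the uncoupling protein that defines brown fat, had at most 3 counts in each of the 8 tumors. Dio2, a deiodinase that other cells also make, had the highest CPM at 42.5 ± 21.7 and 24.9 ± 12.5 CPM (SD, n = 4), followed by Cox7a1 at 1.29 ± 0.284 and 2.05 ± 0.611 CPM. Of 8 adipocyte progenitor genes, all were tested, with 1 called higher, 0 lower and a median of 0.04. This was Cd55, a complement regulator of progenitors and many other cells, at 1.46 ± 0.411 CPM with saline and 5.10 ± 0.944 CPM with mAb-DXd/IMQ (SD, n = 4; log2 fold change 1.79, 95% CI 1.19 to 2.40, adjusted p = 0.0201 by edgeR, up to 0.0846 over the alternatives), higher in 4 of 4 treated tumors. The Cd55 call was lost without saline tumor 3, saline tumor 4 or mAb-DXd/IMQ tumor 4, and with the replicate block (adjusted p = 0.0711 by edgeR). Ly6a, with the highest CPM of the list, was lowest in saline tumor 2 at 126 CPM and highest in saline tumor 1 at 846 CPM, as Adipoq was. Pdgfra, in contrast, was highest in saline tumor 2 at 106 CPM, and its groups did not overlap (log2 fold change -0.48, adjusted p = 0.0679 by edgeR, not called). Of 19 paralogs and partners of the adipocyte genes, 7 of them shared with other lists, 13 were tested and 0 were called (median -0.17), and Retnlb, a relative of Retn, had 0 counts in every tumor.

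Markers of other tissues differed between the same tumors. Neither their source, host or tumor cells, nor their correlation with the adipocyte genes was tested. Of 9 tested skeletal muscle genes (10 in the list), 8 were lowest in saline tumor 2 and 7 highest in saline tumor 1. Their summed CPM was 495.5, 47.3, 398.8 and 234 in saline tumors 1 to 4 and 379.3, 87.5, 192.2 and 276.1 in mAb-DXd/IMQ tumors 1 to 4, led by the actin gene Acta1, while Tnnc2 had no count in any tumor. In the 2 tumors lowest for muscle, saline tumor 2 and mAb-DXd/IMQ tumor 2, Adipoq stood at 0 and 0.728 CPM. These tumors were picked after the values were seen. Of 7 tested epidermis genes (10 in the list), 4 were lowest in saline tumor 2, and the summed CPM was 214, 37.1, 155 and 107 in saline tumors 1 to 4 and 222, 535, 227 and 108 in mAb-DXd/IMQ tumors 1 to 4, led by the keratin gene Krt14. Krt5 and Ivl of this list had no count in saline tumor 2 alone, and Krt1, Flg and Dsc3 had none there and in other tumors. The summed CPM of sebaceous gland genes (151.6) and of peripheral nerve genes (85.9) was not low in saline tumor 2, but the sebaceous sum was carried by Soat1, at 145 CPM there, while Elovl4 of the same list had no count in saline tumor 2 and mAb-DXd/IMQ tumor 4. The summed CPM of simple epithelium genes of mammary tumor was also lowest in saline tumor 2 (2109.6), where 5 of 9 tested genes were lowest. So was that of smooth muscle and pericyte genes (217.6), where 2 of 10 were lowest. The part of skin and muscle in the adipocyte gene values was not tested.

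Macrophage and endothelial markers were not low in saline tumor 2. All 10 macrophage genes were highest in saline tumor 2, beside 14.6% of all genes tested, with a summed CPM of 984, 3088, 1722 and 1998 in saline tumors 1 to 4 and 1765, 1455, 1517 and 1182 in mAb-DXd/IMQ tumors 1 to 4, led by the complement gene C1qa, and no marker was at 0. Of 10 endothelial genes, 3 were highest in saline tumor 2, and the summed CPM was 110, 270, 191 and 203 in saline tumors 1 to 4 and 276, 242, 263 and 232 in mAb-DXd/IMQ tumors 1 to 4, led by the adhesion gene Pecam1, again with no marker at 0. Fabp4, Lpl and Pparg are known to be made by these cells too, and in saline tumor 2 Fabp4 and Pparg were not low while Lpl was at its lowest. The part of these cells in the Fabp4, Lpl and Pparg values was not tested. Between groups, 0 of 10 endothelial genes were called (median log2 fold change 0.45), and 1 of 10 macrophage genes was called lower (median -0.51), the scavenger receptor gene Cd163 (log2 fold change -1.17, adjusted p = 0.0450 by edgeR, up to 0.134 over the alternatives), a call lost on leaving out any 1 tumor, with upper quartile factors, with library size alone, with the length offset and with the replicate block (adjusted p = 0.112 by edgeR).

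**Figure D4:**
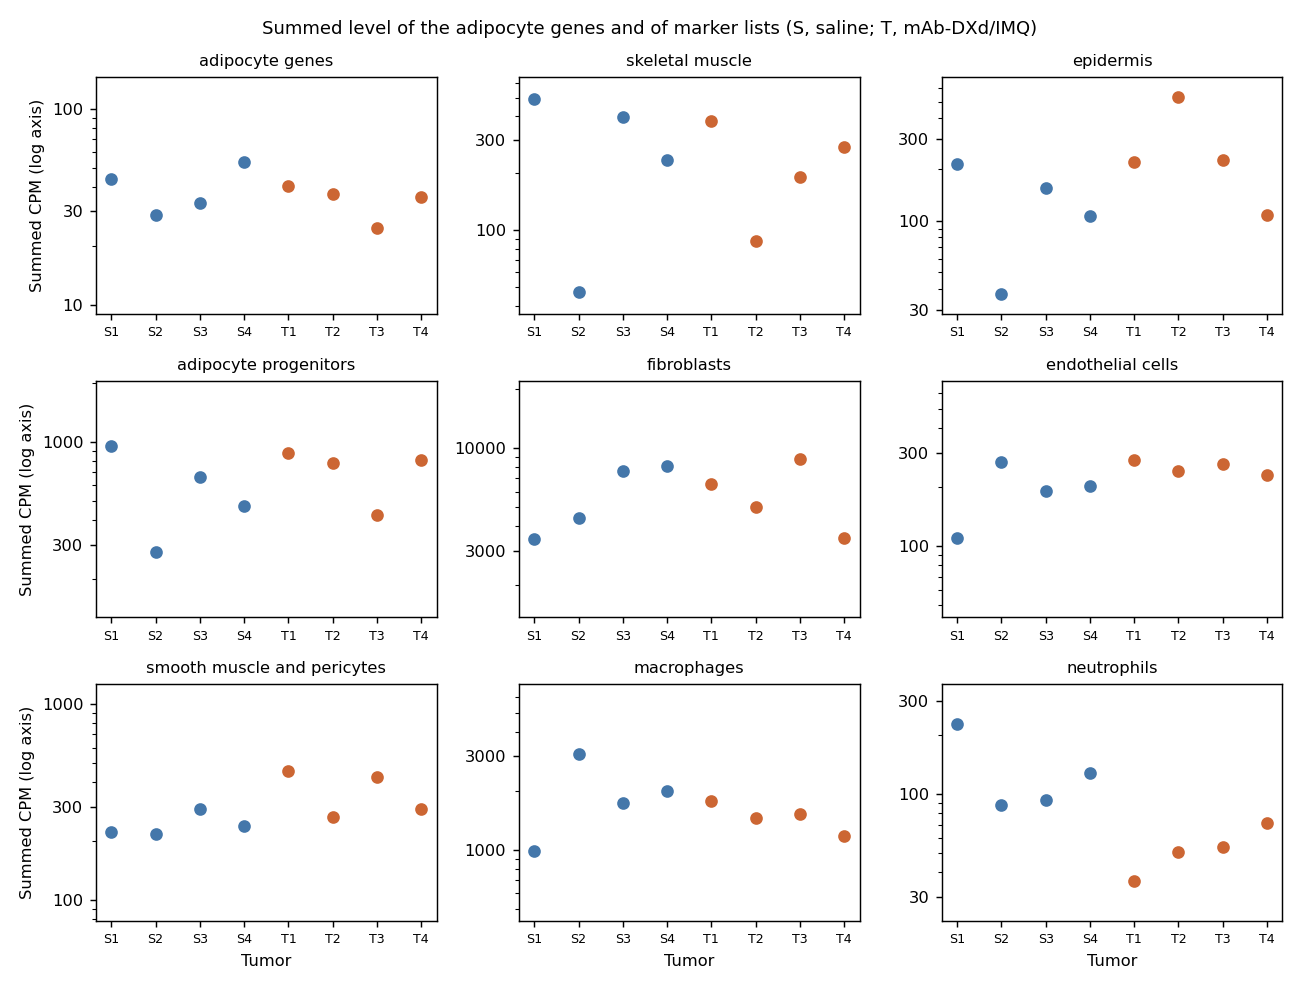
Summed CPM (log axes) of the 10 adipocyte genes and of 8 marker lists in saline tumors S1 to S4 (blue) and mAb-DXd/IMQ tumors T1 to T4 (orange). Tumor S2 is lowest for skeletal muscle (47.3 CPM), epidermis (37.1 CPM), adipocyte progenitors (275 CPM) and smooth muscle and pericytes (218 CPM). It is highest for macrophages (3088 CPM), while the sum of the adipocyte genes, led by Fabp4, is lowest in tumor T3 (24.6 CPM).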

How the data were processed

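Values are raw counts of reads for each gene in 8 tumors, deposited without scaling, beside gene lengths. The submitters' processing notes name HISAT2, HISAT, TopHat2 and the mm39 build, with no roles or settings; coordinates of all 10 adipocyte genes equal GENCODE models on GRCm38, used here. Whether strand was counted is not given in the sources used here. Plin4 overlaps Hdgfl2 (2535 to 4302 counts per tumor) by 17 bases on the other strand, and Pparg overlaps the antisense gene Gm44079, which had 1 count in all. Tumors were grouped by labels. The members and gene lists were chosen with earlier results of these data known. Genes were kept by filterByExpr (minimum count 10, total 15), scaled by TMM (factors 0.939 to 1.07) and tested with edgeR 4.0.16 in R 4.3.3 (quasi-likelihood F-test, no covariates, FDR under 0.05, absolute log2 fold change above 0.58, Benjamini-Hochberg adjustment over 18511 genes). CPM are counts scaled to the TMM-normalized library size; log2 CPM used a prior count of 2; TPM used deposited lengths. Intervals took the standard error from the coefficient and its F statistic. Alternatives covered 3 other scalings, 2 filters, DESeq2 1.42.0, limma-voom (limma 3.58.1), edgeR's newer quasi-likelihood method, FDR alone, a gene length offset (spline, 5 degrees of freedom), a replicate block, and leaving out each tumor. The 17 other lists held 180 genes, of which 151 were tested and 4 called. Genes named were the members, those past the thresholds and genes among the 2 of highest mean CPM in each list described, the 8 nearest to Adipoq, and defining markers near 0; others were chosen after their values were seen. Scripts in R and Python 3.11.15 (scipy 1.17.1, matplotlib 3.10.9) were tested on simulated data. No tumors of a group were duplicates by a comparison with counting noise. The p-values for group differences set each difference against the spread between these tumors, and those for correlations come from permuting the tumors.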

Additional observations from a re-analysis of the deposited data

Results flagged for a closer look

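Of 54 groups of 4 log2 values examined for the adipocyte genes and gene lists, 5 held a tumor far from the other 3 (by the gap to its nearest neighbor over the whole range), beside 2.7 that chance gives at about 1 in 20 groups. Saline tumor 2 stood apart for Cidec (0.865), with no count there. The third mAb-DXd/IMQ tumor stood apart for Cfd (0.874), at 0.328 CPM against 3.37 to 4.67 CPM in the other treated tumors. It was also low for the summed level of brown and beige fat genes (0.854) and of adipocyte progenitor genes (0.837). Dio2 made up 6.81 of the 9.72 CPM of the first sum in this tumor, and Ly6a 325 of the 426 CPM of the second. Other members went the other way, as Cpt1b of the first list and Dlk1 of the second were highest there. Saline tumor 1 stood apart, on the high side, for the summed level of triglyceride storage and lipolysis genes (0.890), at 894 CPM. Slc27a1 alone was at 354 CPM there, against 168 to 210 CPM in the other saline tumors. The causes of these flagged values were not tested.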

How the results depend on the processing

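No alternative brought an adipocyte gene with an adjusted p past the thresholds (9 genes under each, but 7 with DESeq2 and 4 with at least 1 CPM in 4 tumors), although Pparg (adjusted p = 0.238 by edgeR) came under 0.05 before adjustment without saline tumor 3, and Plin4 and Cidec did so without saline tumor 2. Of 166 log2 fold changes recomputed over 9 genes, 157 kept their negative sign. With limma-voom, Plin4 was at 0.16 and Cidec at 0.31. With the replicate block, Plin4 was at 0.0182, and with the block and the length offset, Plin4 was at 0.0350 and Lpl at 0.0143. Leaving out 1 tumor gave ranges of -0.96 to 0.26 for Plin4, -0.38 to 0.0597 for Lpl and -0.25 to 0.15 for Fabp4; the causes were not tested. The count of all genes past the thresholds, 197, was 358 without the filter, 787 with DESeq2 (which called more unchanged genes in simulated data than its threshold allows), 122 with the length offset, 14 with the replicate block and 14 with the block and the length offset, and ranged from 10 to 203 on leaving out 1 tumor; the causes were not tested. With upper quartile factors the calls were 145 higher and 73 lower, and with library size alone 118 and 76. Tumors shared a number but no pairing: deviations of same-numbered tumors correlated at -0.170, -0.0546, 0.0794 and -0.0672, and only number 3 correlated best with its own number. The ratio of group means of the summed CPM, 0.862, was 0.760 for TPM and 0.776 for the median relative level, 0.655 without Fabp4 and Lpl (added after the data were seen), and 0.790 to 0.973 on leaving out 1 tumor. Of the 8 genes nearest to Adipoq, 1 remained without saline tumor 2. Counts under 100 for Adipoq, Plin1, Cidec and Retn in every tumor limit precision there.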
